A study of Mus musculus with 2 samples.

Results

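The gene Chac1 and 8 genes of the ATF4 stress pathway (Atf4, Ddit3, Trib3, Asns, Psat1, Phgdh, Sesn2 and Slc7a11) were followed in wounded mouse skin. The question was whether the low Chac1 signal in skin whose keratinocytes were made to lose the vitamin D receptor goes with low signals of other ATF4 targets. These are 9 of 17871 genes on the array, read by 16 of 25697 probes. The symbols of 8 genes stand in the files, and Chac1 stands there under its older clone name 1810008K03Rik and was found by its gene identifier, 69065. The set was chosen by the intensities of these same arrays: Chac1 was selected on its low value on the knockout array, so its difference is a description. The others were taken for their place in the pathway, with their values on these arrays already known, so theirs are descriptions too.

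The data are 2 Illumina bead arrays of total RNA on 1 slide, as the chip number in the column headers shows, with 1 array per genotype. The knockout array holds wounded skin of Vdr fl/fl mice with a Cre recombinase driven by keratin 14, which removes the vitamin D receptor from keratinocytes and leaves it in the other cells of the skin. The control array holds wounded skin of Vdr fl/fl littermates. Both groups were C57BL6 mice aged 3 months on a low calcium diet, and both carry the floxed alleles. Each mouse had 2 punch wounds of 6 mm through the full skin of the back, and 3 days later an 8 mm punch removed the site together with a rim of skin. The series' design text says that RNA of 3 mice was combined in each sample. A single array stands for each genotype, so the differences have no replicate check and were not tested, and the number of arrays limits the precision.

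Cells answer several kinds of stress by phosphorylating the translation factor eIF2. General protein synthesis then slows, while the mRNA of the transcription factor ATF4 is translated more. ATF4 and its partners switch on genes for amino acid supply, for protein folding and redox balance, and for feedback and cell death. Much of this control acts on the ATF4 protein, so the level of Atf4 mRNA is not a measure of the pathway's activity. Chac1 encodes an enzyme that cleaves glutathione in the cytosol, is a target of ATF4 and CHOP, and can also block the Notch receptor. Its mRNA is widely read as a marker of the pathway.

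Values are normalized intensities of the authors, and differences are log2 intensity, knockout minus control. A gene was read by its brightest probe and counted as detected above an intensity of 176.8 on the knockout array and 172.3 on the control array. On this basis 8926 genes were detected on both arrays, with a median difference of 0.02 and a central 95% between -0.59 and 0.65. All 9 members were among them. The targeted gene, Vdr, was at 2076 in knockout skin and 2596 in control skin by its brightest probe, at 1430 and 1674 by the next, and at 217 and 212 by a dim one. Whether any of these probes lies in the deleted part is not known here. Krt14, the keratin whose promoter drives the Cre, was at 35507 in knockout skin and 34643 in control skin.

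Chac1 was at 743 on the knockout array and at 3511 on the control array. The difference of -2.24 is 4.73-fold lower in knockout skin. It was the 30th lowest among 8926 genes, and 0.336% of them were lower by as much or more. Its only probe was far above the detection floor on both arrays, and no other probe of the gene checks the value. Of the 535 genes above the floor in control skin alone, another 31 had a bound at least as large as the fold of Chac1. In bulk skin, fewer cells that express a gene and less RNA per cell cannot be told apart.

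The promoter of Chac1 is shown because it holds the letters that ATF4 is known to read. It covers 250 bases before the annotated start and 50 after it, from RefSeq, build GRCm38.p6, chr2:119350992-119351291, plus strand. Capitals mark 2 matches: TGACGCAA at position -250, counted from the start, and TTGCATCA at position -193, which is TGATGCAA on the opposite strand.
Chac1 promoter: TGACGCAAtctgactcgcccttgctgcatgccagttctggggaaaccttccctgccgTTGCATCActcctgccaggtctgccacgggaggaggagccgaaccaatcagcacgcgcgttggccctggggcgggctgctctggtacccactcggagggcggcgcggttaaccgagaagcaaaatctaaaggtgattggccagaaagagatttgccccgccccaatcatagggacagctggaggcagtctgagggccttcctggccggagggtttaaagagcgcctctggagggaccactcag

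Promoters of 3 other members held the letters TGATGNAA, the core of the composite element bound by ATF4 with C/EBP proteins, where N is any base. The stretches of 60 bases around the matches are shown to set beside Chac1, each from RefSeq, build GRCm38.p6, on the minus strand and with matches in capitals. They lie at chr6:7693199-7693258 for Asns, chr2:152344013-152344072 for Trib3 and chr3:50443637-50443696 for Slc7a11.
Asns: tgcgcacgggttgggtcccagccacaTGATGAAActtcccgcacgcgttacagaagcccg
Trib3: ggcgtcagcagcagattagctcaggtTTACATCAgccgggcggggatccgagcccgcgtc
Slc7a11: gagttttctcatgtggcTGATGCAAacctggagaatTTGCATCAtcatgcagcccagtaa
Both strands were searched. Slc7a11 holds 2 matches, while the windows of Atf4, Ddit3, Psat1, Phgdh and Sesn2 hold none of TGATGNAA, TGACGCAA and TGACGTCA, the cyclic AMP response element. That says only that these letters are not in these windows. Of 32851 promoter windows of this length, 3.97% hold TGATGNAA, 0.490% hold TGACGCAA and 1.79% hold TGACGTCA.

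None of the 3 members that share the TGATGNAA letters with Chac1 was as low, beside 0.336% of all genes, so that count says little about them. Their differences were 0.41 for Asns, 0.46 for Trib3 and -0.05 for Slc7a11. Over all 214 genes detected on both arrays with TGATGNAA in a promoter window, the median difference was 0.06, and 1.40% were at least 1.5-fold lower. Over the 7070 detected genes with any promoter window the median was 0.02, and 2.53% were at least 1.5-fold lower. Only 3 detected genes hold both TGATGNAA and TGACGCAA. Besides Chac1 these are Herpud1, a protein of endoplasmic reticulum quality control, at 6300 in knockout skin and 5620 in control skin, and Samd8, named only because it holds both, at 237 and 228. A match is a description of letters and not a binding site.

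**Figure D1:**
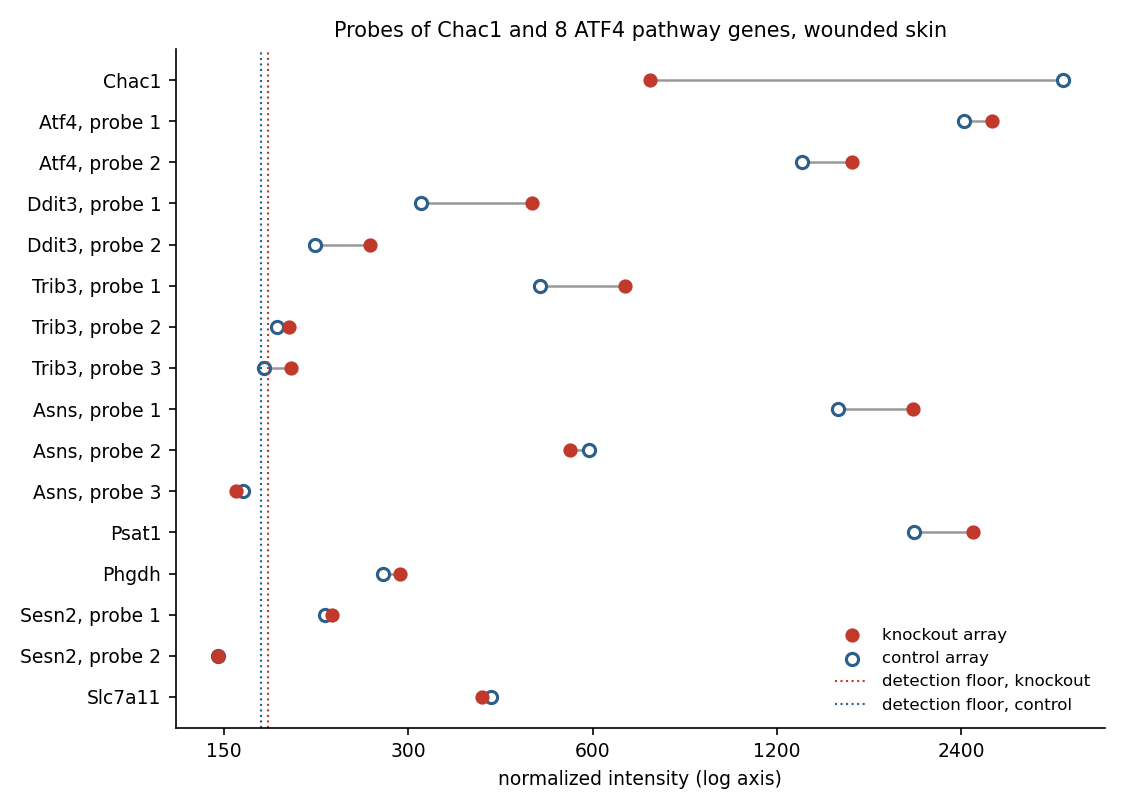
Normalized intensity (log axis) of each probe of the 9 genes, 1 line per probe, with the knockout array as a filled point and the control array as an open point. Chac1 lies at 743 on the knockout array and 3511 on the control array, while the points of every other probe lie close together; dotted lines are the detection floors.

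The transcription factors of the pathway were not lower. Atf4, its central activator, was at 2698 in knockout skin and 2425 in control skin by one probe, and at 1589 and 1319 by the other. Both probes were slightly higher on the knockout array, with differences of 0.15 and 0.27. The brighter of them was matched to Atf4 by the symbol in the file alone. Ddit3 encodes CHOP, the partner of ATF4 that is tied to cell death under lasting stress. It was at 477 in knockout skin and 314 in control skin, a difference of 0.60 or 1.52-fold higher, and its dimmer probe at 260 and 211 differed by 0.30. Of all genes detected on both arrays, 3.17% were as high in this measure as Ddit3 or higher.

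Trib3 encodes a pseudokinase that is induced by ATF4 and CHOP and restrains them. By its brightest probe it was at 678 in knockout skin and 492 in control skin, a difference of 0.46. Its other probes were near the floor, at 192 and 183, and at 193 and 174, with differences of 0.06 and 0.15. All 3 probes were higher on the knockout array, and Trib3 thus lay on the opposite side of 0 from Chac1. Its brightest probe was matched by the symbol in the file.

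The enzymes of amino acid synthesis lay on the same side as Trib3 or near 0. Asns, which makes asparagine, was at 2004 in knockout skin and 1512 in control skin by its brightest probe. Its second probe ran the other way, at 550 and 591, a difference of -0.10, and the remaining one was below the floor on both arrays. Psat1, an aminotransferase of serine synthesis, was at 2508 in knockout skin and 2012 in control skin, a difference of 0.32 from a single probe matched by symbol alone. Phgdh, the dehydrogenase that opens the same serine pathway, was at 291 and 273, a difference of 0.09. Neither of these serine synthesis genes was lower on the knockout array, and Psph, of the same pathway, was below the floor on both arrays.

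Sesn2 and Slc7a11 were nearly equal on the arrays. Sesn2, a leucine sensor upstream of mTORC1 that is also induced by p53, was at 225 in knockout skin and 219 in control skin, and its other probe was below the floor on both arrays. Slc7a11, the cystine importer that feeds glutathione synthesis and supplies cystine to pigment cells, was at 395 in knockout skin and 409 in control skin. With a difference of -0.05 it was the only one of the 8 below 0. Melanocyte markers differed far more. All 4 detected on both arrays were lower, with a median of -3.29, or -2.28 with no filter on dim probes. Dct was at 460 in knockout skin and 5377 in control skin, Pmel at 199 and 2686, Mlana at 269 and 2221 and Tyrp1 at 182 and 883, and their summed intensity was 1110 in knockout skin and 11166 in control skin. Slc45a2 passed the floor in control skin alone, and was at least 1.41-fold lower, Tyr and Mitf on neither array, and Sox10 was not read. The part of pigment cells in the Slc7a11 value was not tested.

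Among the 8 members beside Chac1, 7 were higher on the knockout array and 1 was lower. Of all 8926 genes, 4808 were higher and 4108 lower. Ddit3 alone passed 1.5-fold upward, against 3.56% of all genes, and 0 passed it downward, against 2.51% (6.07% in either direction). At 2-fold there were 0 either way, while 0.739% of all genes were higher and 0.907% lower by that much (1.65% in either direction). The median of the 8 was 0.24, with a range of -0.05 to 0.60, beside 0.02 for all genes. Of their 15 probes, 13 were detected on both arrays, 11 higher and 2 lower. The detected probes of one gene differed with an SD of 0.14 on the log2 scale over 2128 genes, which measures probes and not mice. With background correction by neqc the Ddit3 difference was 0.88. With the mean over its probes it was 0.45, with raw signals scaled to equal medians 0.52 and with an offset of 32 it was 0.56, all under 1.5-fold. All genes past 1.5-fold numbered 318 higher and 224 lower, and with raw signals scaled to equal medians 199 higher and 284 lower. At 2-fold they numbered 66 and 81, against 46 and 99 under that scaling, 162 and 142 with neqc, and 67 and 141 with no filter on dim probes.

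**Figure D2:**
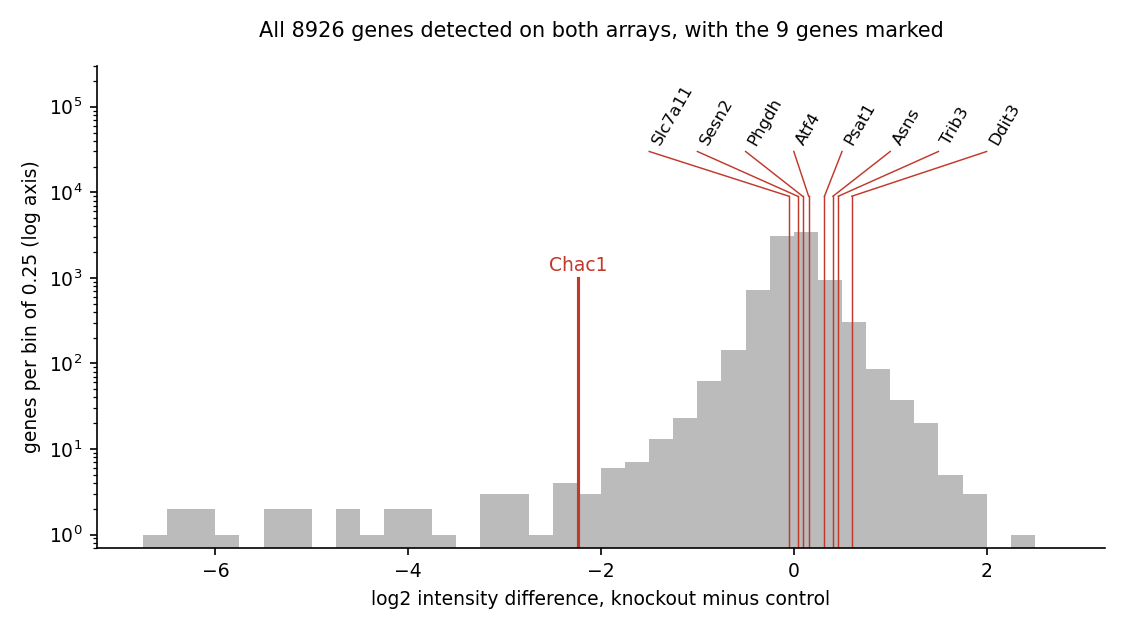
Number of genes (log axis) by log2 intensity difference, knockout minus control, for the 8926 genes detected on both arrays, with the 9 genes as lines. Chac1 lies at -2.24 in the sparse lower tail, and the other 8 lie between -0.05 and 0.60 in the central mass.

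Closest to Chac1 in difference over these 2 arrays were 6 genes, a likeness that rests on 1 number per gene. Tyrp1, an enzyme of melanin synthesis, differed by -2.28. Ctse, the aspartic protease cathepsin E, was at 638 in knockout skin and 2928 in control skin, a difference of -2.20. Pinlyp differed by -2.40, Otop2, a proton channel, by -2.42, the LIM domain protein Csrp1 by -2.05 and the kinase Dclk3 by -2.48. None of the 6 is in a stress pathway list. Among the 30 genes as low as Chac1 or lower, 9 were on the growing hair follicle list, 4 on the melanocyte list, and 0 besides Chac1 on any pathway list. Of the 8926 detected genes, 10 were on the hair follicle list and 4 on the melanocyte list. The pathway lists, without that of relatives, held 121 outside the 9 members. With 0.336% of all genes as low as Chac1, the absence of pathway genes here says little about them.

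Markers of the growing hair follicle were lower along with Chac1. Of 22 listed, 10 were detected on both arrays and all were lower, 9 of them at least 2-fold, beside 0.907% of all genes. The median was -5.92, or -3.82 with no filter on dim probes and -6.85 with neqc. Their summed intensity was 4337 in knockout skin and 162900 in control skin. Krt34, a hair shaft keratin, was at 212 in knockout skin and 19741 in control skin, and Krt71, a keratin of the inner root sheath, at 618 and 34898. Krt27 was at 686 and 30589, Krt73 at 285 and 18558, Krt33a at 212 and 17223, Krt86 at 192 and 12994 and S100a3 at 201 and 16299. A further 6 were detected on the control array only, as were 535 of all 17871 genes. Msx2, Hoxc13 and Padi3 were lower by at least 2.29-fold, 2.10-fold and 2.30-fold, and Krt35 and Krt32 by at least 17.0-fold and 8.20-fold. Lef1 was near the floor, at 178 in control skin. Krt25 and Foxn1 were below the floor on both arrays, and Krt28, Krt33b, Krt85 and Tchh were not read. Gata3, a factor of the inner root sheath, was closest to 0, at 1248 in knockout skin and 1798 in control skin. Whether Chac1 is expressed in the hair follicle, and the part of hair follicle tissue in its difference, was not tested.

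Keratinocyte markers did not share the difference of Chac1. The 9 basal keratinocyte genes had a median of 0.10, with Krt5 at 11002 in knockout skin and 10274 in control skin, and the 9 wound keratinocyte genes a median of 0.15. Differentiating keratinocyte genes had a median of 0.20, fibroblast genes 0.15, macrophage genes 0.35, neutrophil genes 0.02, endothelial genes 0.46, skeletal muscle genes 0.26 and adipocyte genes -0.03. Sebaceous gland genes had a median of 0.78, and 6 of 8 passed 1.5-fold upward, beside 3.56% of all genes. The 5 detected T cell genes had a median of 0.87 (1.48 under neqc), and the 3 red cell genes detected on both arrays one of -0.81. Slc4a1 of the red cell list passed the floor in control skin alone, at 897, and was at least 5.07-fold lower. Several tissue lists thus had medians as large as the 0.24 of the 8 pathway members.

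**Figure D3:**
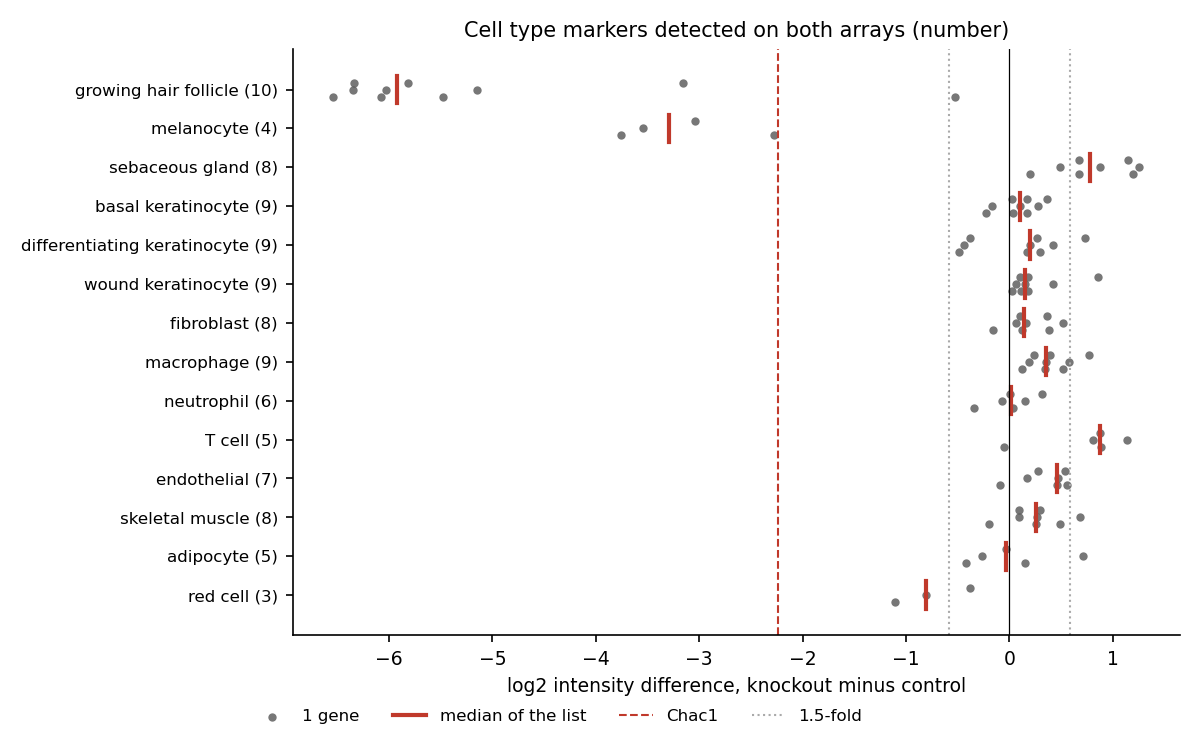
Log2 intensity difference, knockout minus control, of each cell type marker detected on both arrays, by list, with list medians as bars and Chac1 as a dashed line. The plotted hair follicle and melanocyte markers lie at or below the value of Chac1 except Gata3, and no plotted gene of another list reaches it. Genes detected on 1 array, such as Slc4a1 of the red cell list, are not plotted.

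The wider ATF4 programme was close to 0. In the 6 lists of ATF4-linked genes (partner factors, amino acid synthesis, amino acid transporters, tRNA synthetases, stress effectors and CHOP-linked death genes), 41 genes outside the 9 members were detected on both arrays. The median was 0.04, with 24 on the higher side and 17 on the lower, beside 4808 and 4108 of all 8926 genes. Past 1.5-fold were 2 upward and 2 downward. These shares lie near the 3.56% and 2.51% of all genes. None was as low as Chac1, beside 0.336% of all genes.

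Upstream of ATF4, 1 of 10 detected genes of eIF2 control passed 1.5-fold upward and 2 passed it downward, beside 3.56% and 2.51% of all genes. Eif2ak3 (PERK, the sensor of the endoplasmic reticulum) was at 192 in knockout skin and 199 in control skin, near the floor. Eif2ak1 (HRI, the haem-regulated kinase) was at 1052 and 1042. Eif2ak2 (PKR, the antiviral kinase, itself induced by interferon) was at 1337 in knockout skin and 890 in control skin, a difference of 0.59 that just passed 1.5-fold. It was under 1.5-fold with raw signals scaled to equal medians, at 0.48, and with an offset of 32, at 0.57. Ppp1r15a (GADD34), which brings the phosphatase to eIF2 and is an ATF4 target, was at 1417 and 1366, and its constitutive relative Ppp1r15b at 324 and 275. Of the eIF2B subunits, Eif2b4 was at 2033 in knockout skin and 3496 in control skin, a difference of -0.78. Eif2b5, the catalytic subunit, was at 2691 and 4233, and its 3 probes gave -0.65, -0.71 and -0.48. Eif2b2 was at 789 and 1022, and Eif2b1 at 1234 and 1404. All 4 detected subunits were lower, beside 4108 of all 8926 genes, Eif2b1 and Eif2b2 by less than 1.5-fold. Impact, an inhibitor of the kinase GCN2, was at 753 and 964. The list of 10 had a median of -0.12.

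Of the 5 detected partner and downstream factors, 2 passed 1.5-fold upward, beside 3.56% of all genes, and 0 passed it downward. Nupr1, a stress-induced chromatin protein downstream of ATF4, was at 6973 in knockout skin and 3930 in control skin, a difference of 0.83. Atf3, an immediate early factor that ATF4 also induces, was at 421 in knockout skin and 264 in control skin, a difference of 0.67. Cebpb, a dimer partner, was at 12308 and 11288, Atf5, a close relative of ATF4, at 1824 and 1821, and Jdp2 at 534 and 540. The list's median was 0.12 over 5 genes.

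Amino acid enzymes and transporters differed gene by gene. Cbs, the first enzyme from homocysteine towards cysteine, was at 206 in knockout skin and 524 in control skin, and its other probe at 249 and 459, with differences of -1.34 and -0.88. Bcat1, a branched-chain aminotransferase, was at 1062 and 737, Gpt2, the mitochondrial alanine aminotransferase, at 1159 and 902, and Aldh1l2, a folate enzyme of mitochondria, at 617 and 519. Shmt2, the mitochondrial serine hydroxymethyltransferase, was at 302 and 339 and Mthfd2, which acts in mitochondrial folate metabolism, at 244 and 236. Aldh18a1, of proline synthesis, was at 1049 and 1028 and Got1 at 219 and 200. Slc7a5, the light chain of the leucine importer LAT1, was at 1882 in knockout skin and 3378 in control skin, a difference of -0.84. Slc1a4, a neutral amino acid carrier, was at 285 and 386, Slc6a9, a glycine carrier, at 923 and 716, and Slc38a2, a classic ATF4 target, at 5233 and 5054. The synthesis list had a median of 0.09 over 8 genes and the transporter list one of -0.20 over 4, with the other 5 transporters on the array below the floor on both.

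The cytosolic tRNA synthetases allowed a comparison of genes known to depend on ATF4 with genes not usually counted among its targets. The 10 detected ATF4-dependent synthetases had a median of -0.12, with 2 higher and 8 lower, all within 1.5-fold. The 7 others had a median of -0.12, with 2 higher and 5 lower, also all within 1.5-fold. Of all 8926 genes, 4808 were higher and 4108 lower, and 6.07% were past 1.5-fold in either direction. Gars, for glycine, was at 11452 in knockout skin and 13901 in control skin, Aars, for alanine, at 2575 and 2751, Iars at 1260 and 1183, Nars at 910 and 1084, Sars at 971 and 1158, Wars at 1023 and 1139 and Eprs at 284 and 312. In the second list Rars, for arginine, was at 1651 in knockout skin and 2170 in control skin, Qars at 4972 and 5765, Farsb at 2692 and 3271, Dars at 2399 and 2551, Kars at 1743 and 1659 and Vars at 843 and 916. With the mean over probes the medians were -0.04 for the ATF4-dependent synthetases and -0.14 for the others, and with raw signals scaled to equal medians -0.19 and -0.22. The difference between the lists was not tested.

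Among stress effectors 8 of 9 were higher, beside 4808 of all 8926 genes, with a median of 0.15. All 9 were within 1.5-fold, beside 6.07% of all genes past it. Vegfa, the vascular growth factor, was at 816 in knockout skin and 599 in control skin, Eif4ebp1, the translation repressor, at 3624 and 3417, and Ddit4, an inhibitor of mTORC1, at 2208 and 2144. Sqstm1, the autophagy receptor p62, was at 3622 and 3263 and Map1lc3b at 443 and 363. Stc2 was at 270 and 220, and Vldlr, the one lower gene, at 566 and 659. Gdf15, a secreted stress cytokine, passed the floor in knockout skin alone, at 181, and Fgf21, a secreted target of ATF4, on neither array. The CHOP-linked death genes had a median of -0.02 over 5 genes. Bbc3 (PUMA) was at 450 and 350, Bcl2l11 (BIM) at 562 and 516, and Tnfrsf10b, the death receptor induced by CHOP, at 273 and 289. Bcl2 was at 200 and 229 and Pmaip1 (NOXA) at 180 and 182, near the floor.

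**Figure D4:**
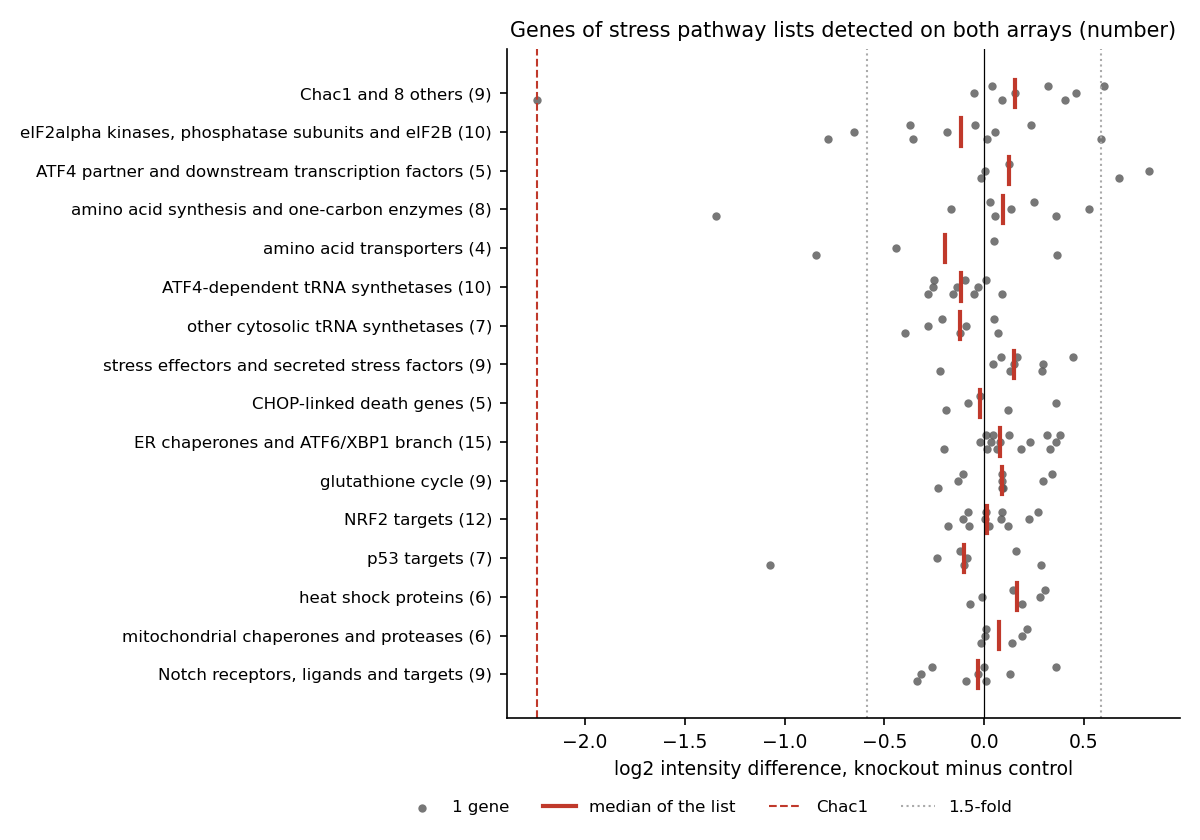
Log2 intensity difference, knockout minus control, of each gene detected on both arrays, by stress pathway list, with list medians as bars, Chac1 as a dashed line and 1.5-fold as dotted lines. Relatives of the 9 genes are not plotted. Medians of the plotted lists lie between -0.20 and 0.17, and no plotted gene besides Chac1 lies below -1.34.

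Other arms of the stress response were near 0 as well. All 15 detected genes of the endoplasmic reticulum chaperone and ATF6/XBP1 list were within 1.5-fold, beside 6.07% of all genes past it. The list's median was 0.08, with 13 on the higher side and 2 on the lower, beside 4808 and 4108 of all 8926 genes. Xbp1, the factor of the IRE1 arm, was at 9550 in knockout skin and 7688 in control skin, Hsp90b1 (GRP94) at 3704 and 3753, and P4hb, a disulphide isomerase, at 16507 and 15763. Sel1l and Syvn1, of the degradation complex, were at 1370 and 1054, and at 4136 and 3221. Creld2 was at 1134 and 901, Calr (calreticulin) at 990 and 843 and Pdia3 at 7126 and 8195. The 6 heat shock genes had a median of 0.17, with Hspa1a (HSP70) at 1052 in knockout skin and 853 in control skin, Hsph1 at 1007 and 831, Hspa8 at 20574 and 18044, Hspb1 at 4330 and 3920, Dnajb1 at 4342 and 4377 and Bag3 at 5952 and 6255. The 6 mitochondrial chaperones and proteases had a median of 0.07, which was -0.01 with raw signals scaled to equal medians. Trap1 was at 1557 and 1343, Dnaja3 at 3067 and 2687, Hspe1 at 444 and 403, Hspd1 at 1829 and 1819, Hspa9 at 8338 and 8300 and Clpp at 972 and 984. NRF2 targets, set beside Slc7a11, which NRF2 also induces, had a median of 0.02 over 12 genes, or -0.09 under that scaling. Hmox1 (haem oxygenase 1) was at 1058 and 1053 and Nqo1 at 322 and 342. Pgd was at 7052 and 5855, Srxn1 at 1353 and 1156, G6pdx at 1028 and 1166, Nfe2l2 (NRF2 itself) at 279 and 258, its inhibitor Keap1 at 1414 and 1408, Taldo1 at 6896 and 7269 and Osgin1 at 388 and 418.

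Genes of the glutathione cycle, set beside Chac1 because its enzyme cleaves glutathione, did not share its difference. The median was 0.09 over 9 genes, all within 1.5-fold, beside 6.07% of all genes past it. Ggct, which acts on the gamma-glutamyl amino acids of the cycle, was at 2921 in knockout skin and 2306 in control skin. Gclm, the modifier subunit of glutamate-cysteine ligase, was at 918 and 862, Gss, glutathione synthetase, at 225 and 242, and Oplah, which opens the 5-oxoproline released by such enzymes, at 697 and 820. Gpx4, the lipid peroxidase that uses glutathione, was at 2355 and 1919, Gpx1 at 24438 and 22989, Gpx3 at 14130 and 15484 and Ggt5 at 315 and 295. Chac2, the paralog of Chac1, was below the floor on both arrays.

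Notch genes were set beside Chac1 because its protein can hold back the maturation of Notch1. All 9 detected were within 1.5-fold, beside 6.07% of all genes past it. Their median was -0.03, with 4 on the higher side and 5 on the lower, beside 4808 and 4108 of all 8926 genes. Notch1 was at 592 in knockout skin and 737 in control skin, its target Hes1 at 829 and 1047, the ligand Jag2 at 302 and 363, Notch4 at 906 and 706, and Furin, the protease that matures the receptor, at 5416 and 5412. Notch3 was at 672 and 615, Hey1 at 389 and 414 and Nrarp at 2872 and 2933. The targets Hey2 and Heyl passed the floor in control skin alone, at 173 and 174, beside 148 and 162 in knockout skin. Both stood just above the control floor of 172.3, and their bounds show no difference.

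Of p53 targets, read beside Sesn2, 6 of 7 were within 1.5-fold, with a median of -0.10. The remaining 1 was lower by more, beside 2.51% of all genes. Cdkn1a (p21) was at 4776 in knockout skin and 5199 in control skin, Mdm2 at 1872 and 1677, Ccng1 at 1830 and 1502 and Zmat3 at 543 and 640. Trp53inp1, a stress protein of autophagy and cell death, was at 374 in knockout skin and 787 in control skin, a difference of -1.08, and its other probe was below the floor on both arrays.

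Relatives of the 9 genes had a median of -0.12 over 6 detected. Slc7a8, the light chain of LAT2 and a relative of Slc7a11, was at 483 in knockout skin and 1250 in control skin, a difference of -1.37, while its dimmer probe at 223 and 283 gave -0.34. With Slc7a5, described above, it was 1 of 2 relatives at least 1.5-fold lower, beside 2.51% of all genes. Slc7a7, a carrier of macrophages and gut, was at 322 and 261. Slc7a10, a carrier first known from neurons and fat, passed the floor in control skin alone, at 186. Sesn1, a p53 target related to Sesn2, was at 1851 and 1988, and Trib2 at 318 and 352. Sesn3, Trib1, Slc7a9 and Slc7a13 were below the floor on both arrays.

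**Figure D5:**
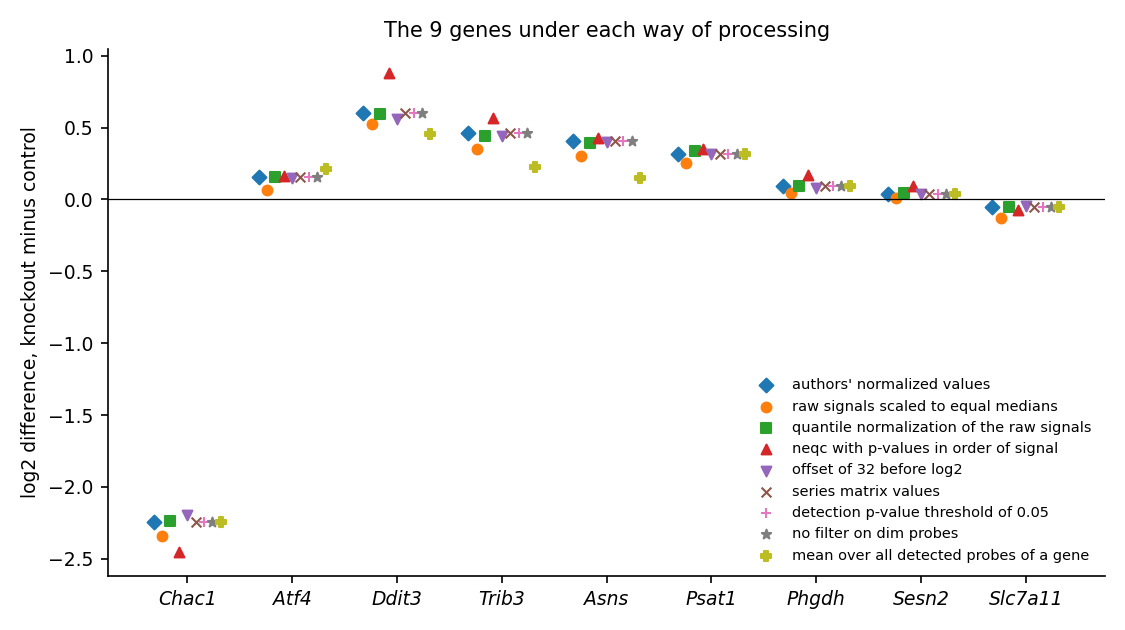
Log2 difference, knockout minus control, of the 9 genes under the authors' normalized values and 8 other ways of processing, 1 symbol each. Chac1 lies between -2.45 and -2.19 throughout, and the other 8 between -0.13 and 0.88. The series matrix, the detection threshold and the filter on dim probes cannot change the difference of a gene, so their symbols repeat the authors' value.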

How the data were processed

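The authors' deposited tables hold linear intensity per probe, as the average bead signal before and after their normalization, and GenomeStudio 2011.1 is named in the submitters' processing notes. How background was treated, and which normalization was applied, is not stated in the labels or headers. The deposited normalized columns hold nearly the same quantiles, and the series matrix equals them at all probes. The tables also give a detection p-value per probe, which per the file headers stands beside each signal but does not follow the row order of the signals (rank correlation 0.008 on the knockout array and 0.009 on the control array). These p-values were used as a set: as many of the brightest probes counted as detected as had a p-value under 0.01, which left 12155 probes on the knockout array and 12584 on the control array, without ties at the floor. Median raw signals were 165.8 and 180.0.

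Differences are log2 of the normalized intensity without an offset. Because background remains in the values, differences of dim genes are understated. Probes were named through a RefSeq table of GRCm38.p6, 16938 by gene identifier, 7420 by accession, 465 by symbol, 553 by synonym, and 321 kept the file's name. Where a gene has several probes, the one with the highest mean of the 2 arrays was read, and 25 genes whose probes disagreed on detection were left out of counts. A gene detected on 1 array has a bound against the lowest detected signal of the other. The code for the gene table was run on simulated data with changes planted in bright genes only. That checks the code, and not dim genes or the noise of these arrays. Alternatives used limma 3.58.1 (neqc, quantile normalization) in R 4.3.3, with p-values put in order of signal for neqc.

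Members and lists were chosen with earlier results of these data known. The rule for named genes took every probe of the members, their relatives, and in each pathway list the genes past 1.5-fold, the 6 with the largest difference and the 4 brightest, plus the 6 genes nearest to Chac1. In each cell type list it took the 4 brightest and the 4 with the largest difference, of which only those of the hair follicle and melanocyte lists, Krt5 and Krt14 are printed, the other lists being given by their medians. Vdr was named outside the rule, as the targeted gene. Also outside it, and named after their values were seen, were Samd8, Eif2ak1, Eif2ak3, Mthfd2, Psph, Fgf21, Gdf15, Nqo1, Hmox1, Hey2, Heyl, Gata3 and Slc4a1. So were the hair follicle and melanocyte markers detected on 1 array or none, or not read.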

Additional observations from a re-analysis of the deposited data

How the results depend on the processing

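Of 464 values recomputed for 58 results under 8 alternatives, 449 stayed within 1.5-fold (0.58 on the log2 scale) of the reported value, or within 1.5 times the reported count, and 15 moved further, with 0 changes of sign among differences of at least 1.5-fold. That size is a convention, since no replicate gives an error. Part of the values that stayed could not have moved. The series matrix holds the same values as the normalized columns. The detection threshold and the filter change which genes are counted, and not the difference of a single gene. The mean over probes cannot change a gene with 1 detected probe, such as Chac1. Chac1 ran from -2.45 with neqc to -2.19 with an offset of 32. The median of the 8 other members ran from 0.16 to 0.26, with 7 higher under each alternative. The count of these members at least 1.5-fold higher was 1 as reported and 0 with raw signals scaled to equal medians, with an offset of 32 and with the mean over probes. Genes at least 1.5-fold higher numbered 199 with raw signals scaled to equal medians, against 318 as reported, and with neqc 663, with 421 lower against 224. At 2-fold, neqc gave 162 higher and 142 lower, against 66 and 81, and no filter on dim probes gave 141 lower. Without that filter 64 genes were as low as Chac1. The Cbs difference was -2.31 with neqc. The causes were not tested. No paired analysis was possible because each genotype has 1 array, and for the same reason no array could be left out. Dim probes such as those of Phgdh, Sesn2 and Eif2ak3 lie near the detection floor, where background hides differences.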
